A study of Mus musculus with 32 samples.

Results

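The oligoadenylate synthetase (OAS) family was followed through fat cell differentiation of mouse 3T3-L1 cells with and without knockdown of Zbtb9. Its 8 genes, Oas1a, Oas1b, Oas1c, Oas1g, Oas2, Oas3, Oasl1 and Oasl2, were taken by gene symbol from a table of 20560 genes measured by RNA sequencing in 32 libraries. 3T3-L1 is an established mouse fibroblast-like preadipocyte line, and every library came from it. All cells carried a short hairpin RNA (shRNA): a scramble hairpin in the control group (shCtrl, 4 libraries a day) or 1 of 2 hairpins against the transcript of Zbtb9, a zinc finger and BTB domain protein (shRNA1 and shRNA2, 2 libraries each a day). Days 0, 3, 7 and 11 were sampled. Per the labels' protocols, differentiation started at day 0, 2 days after confluence, with 1 µM dexamethasone, 0.5 mM isobutylmethylxanthine and 167 nM insulin. Insulin was the only one of these left from day 3, and none was given from day 7. The labels call the replicates biological and do not say whether they were separate infections or cultures, so the spread used by the tests may be partly technical.

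OAS enzymes bind double-stranded RNA, a sign of virus infection, and then join ATP into short oligoadenylates. These are messengers that lead to the breakdown of viral and cellular RNA. Type I interferon switches the family on through the receptor chains Ifnar1 and Ifnar2, the kinases Jak1 and Tyk2, and a complex with Stat2 and Irf9 that binds the interferon-stimulated response element (ISRE) of promoters. In the mouse the family has many copies. Oas1a, Oas1g, Oas2 and Oas3 are classed as active synthetases. Oas1b is a flavivirus resistance gene that is truncated in most laboratory strains. Oasl1 and Oasl2 encode proteins with ubiquitin-like ends, of which Oasl2 keeps synthetase activity and Oasl1, a repressor of Irf7 translation, does not.

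All 8 genes lie on chromosome 5 in the GRCm38 annotation, matched by Ensembl identifier. Oasl2 (ENSMUSG00000029561, 114896936 to 114912234) and Oasl1 (ENSMUSG00000041827, 114923240 to 114937915) are neighbours on the plus strand. The other genes form a second cluster 5792418 bases further on, with Oas2 (ENSMUSG00000032690, 120730333 to 120749853), Oas3 (ENSMUSG00000032661, 120753098 to 120777661), Oas1c (ENSMUSG00000001166, 120800194 to 120812514), Oas1g (ENSMUSG00000066861, 120876142 to 120887613) and Oas1a (ENSMUSG00000052776, 120896256 to 120907521) on the minus strand. Oas1b (ENSMUSG00000029605, 120812635 to 120824163), annotated as a polymorphic pseudogene, is on the plus strand and starts 121 bases from the start of Oas1c, pointing away from it. Oas1a and Oas1g are near copies. Of all 50-base stretches of the Oas1a exons 57.6% recur in Oas1g, and of those of Oas1g 45.7% recur in the family, nearly all in Oas1a, so how reads were divided between this pair is uncertain. Of the exon bases of Oas1c, 9.4% overlap a gene on the other strand, and whether the counting used strand is not given in the sources used here.

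Promoter sequence was at hand for 6 of the 8 genes, from RefSeq on GRCm38.p6 as windows of 250 bases before and 50 after each start site. It is shown because most genes of the family moved together over the days. Capitals mark matches to the ISRE core, searched on both strands as GAAA and again GAAA with any 2 bases between. The lines below give the minus strand of chr5:120907526-120907585 (Oas1a), chr5:120887614-120887671 (Oas1g), chr5:120812573-120812668 (Oas1c) and chr5:120777685-120777774 (Oas3), and the plus strand of chr5:114896834-114896933 (Oasl2) and chr5:114923140-114923239 (Oasl1), each 5′ to 3′ and ending before the start site.
Oas1a: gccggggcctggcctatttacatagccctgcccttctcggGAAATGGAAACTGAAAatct
Oas1g: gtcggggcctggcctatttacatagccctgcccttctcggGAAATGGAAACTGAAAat
Oas1c: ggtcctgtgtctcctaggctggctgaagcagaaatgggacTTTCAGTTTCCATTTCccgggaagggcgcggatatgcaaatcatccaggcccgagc
Oas3: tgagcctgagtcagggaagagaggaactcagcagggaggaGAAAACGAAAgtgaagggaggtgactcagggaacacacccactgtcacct
Oasl2: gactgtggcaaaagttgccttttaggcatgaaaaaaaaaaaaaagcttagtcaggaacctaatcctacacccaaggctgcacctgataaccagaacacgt
Oasl1: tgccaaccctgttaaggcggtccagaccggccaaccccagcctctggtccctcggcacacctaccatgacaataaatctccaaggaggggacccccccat

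Oas1a and Oas1g each held 2 overlapping matches in 1 run of 16 bases, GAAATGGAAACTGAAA. The run of Oas1c is the exact reverse complement of it, and it ends 7 bases before the annotated start of Oas1b on the other strand. Oas3 held 1 match, and the windows of Oasl1 and Oasl2 held none. Of 32851 promoter windows of the same length 3.44% held the core. The letters TTCNNNGAA, the core of a Stat dimer site, were found in the Oas1a window alone of these 6, and in 8.3% of all windows. No match overlapped between the searches. The whole windows of Oas1a and Oas1g were 85.3% identical when aligned, against 42.0% to 48.7% for the other pairs. A match of letters is not a shown binding site, and the absence of one describes only these letters in these windows.

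The deposited values are log2 values in which rare genes are drawn towards their mean over all libraries, so differences in them are smaller than the differences in reads for rare genes. Whole reads were therefore rebuilt from them and are printed here as normalized reads, which are reads divided by the size factor of the library. The libraries held 22280363 to 31073726 rebuilt reads in genes. Zbtb9 was rare. At day 7 it had 12.7 to 22.3 normalized reads in control, 6.09 and 9.28 with shRNA1 and 8.39 and 4.87 with shRNA2, the only day on which limma called it lower in the pooled knockdown libraries (log2 change -0.35, SE 0.12, adjusted p 0.0288). At day 3 its deposited values were too low for it to enter the test. At day 11 shRNA1 libraries had 8.17 and 19.3 against 12.1 to 19.955 in control, while shRNA2 libraries had 2.13 and 4.25 and were called lower than control (-0.49, SE 0.16, limma adjusted p 0.0228). Of 10 adipocyte markers (Pparg, Adipoq and others) the 9 tested were higher in knockdown at day 7 (24.9% of genes tested were called higher) and at day 11 (16.8%), and of 10 fibroblast markers 8 were lower at day 7 (22.6% of genes tested were called lower) and 5 at day 11 (16.2%). Summed adipocyte markers ran from 47995 to 52117 normalized reads in control and from 131116 to 202339 in knockdown at day 7. Of 10 macrophage and leukocyte markers 6 are in the table, Adgre1, Fcgr1 and Cd3e not being among them, and the sum of the 6 at day 7 was 504 to 537 in control and 357 to 505 in knockdown, while at day 11 it was 720.3 to 831 in control and 902 to 1058 in knockdown. The 5 endothelial markers summed to 13.8 to 34.5 in control and 26.2 to 48.7 in knockdown at day 7, and the 5 epithelial markers, led by Krt18, to 6.90 to 19.7 and 70.3 to 123. The part of these markers in the results below was not tested. In bulk libraries, fewer cells expressing a gene and less RNA per cell cannot be told apart.

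In control cells the family was abundant at day 0, nearly silent at day 3, and abundant again at days 7 and 11. The summed fibroblast markers of control libraries were also lowest on day 3. They were at 792537 to 837014 normalized reads on day 0, 331768 to 360195 on day 3, 643149 to 705907 on day 7 and 740774 to 850912 on day 11. Summed adipocyte markers of control were at 19717 to 20316 on day 0 and 55068 to 65074 on day 11. The part of these markers in the course of the family was not tested. The 8 genes of a control library summed to 5615 ± 1193 normalized reads on day 0 and 85.7 ± 5.78 on day 3, then to 5360 ± 1214 on day 7 and 8057 ± 738 on day 11 (SD, n = 4 each). Oasl2 had the largest share of this sum, with 84.6%, 44.6%, 76.5% and 78.2% of it on these days. Per kilobase of exon, which allows levels of different genes to be compared, the order in control at day 11 was Oasl2 (989 ± 101 normalized reads per kilobase), Oas1a (185 ± 30.9), Oas1b (176 ± 7.76), Oas2 (111 ± 9.91), Oas1c (74.6 ± 11.3), Oas3 (42.9 ± 3.42), Oas1g (31.1 ± 5.17) and Oasl1 (1.41 ± 0.56) (SD, n = 4). Oas1a and Oas1b, neighbours in that order, did not differ beyond their spread. Since Oas1a and Oas1g share much of their sequence, their places in the order are uncertain. At day 0 the level per kilobase of Oas1b (126 ± 31.1) and Oas1a (97.8 ± 38.3) overlapped, as did that of Oas1c (54.6 ± 3.54) and Oas2 (52.8 ± 16.05), and Oas3 was at 4.25 ± 2.08, below Oas1g at 11.9 ± 4.23 (SD, n = 4). Oas3 was 9.74-fold higher at day 11 than at day 0 by reads (95% counting interval 8.17 to 11.7), while the ratio was 1.31 for Oasl2 (1.29 to 1.34) and 2.06 for Oas2 (1.91 to 2.21). Reads here carry no molecular identifiers, so these intervals cover counting error only.

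**Figure D1:**
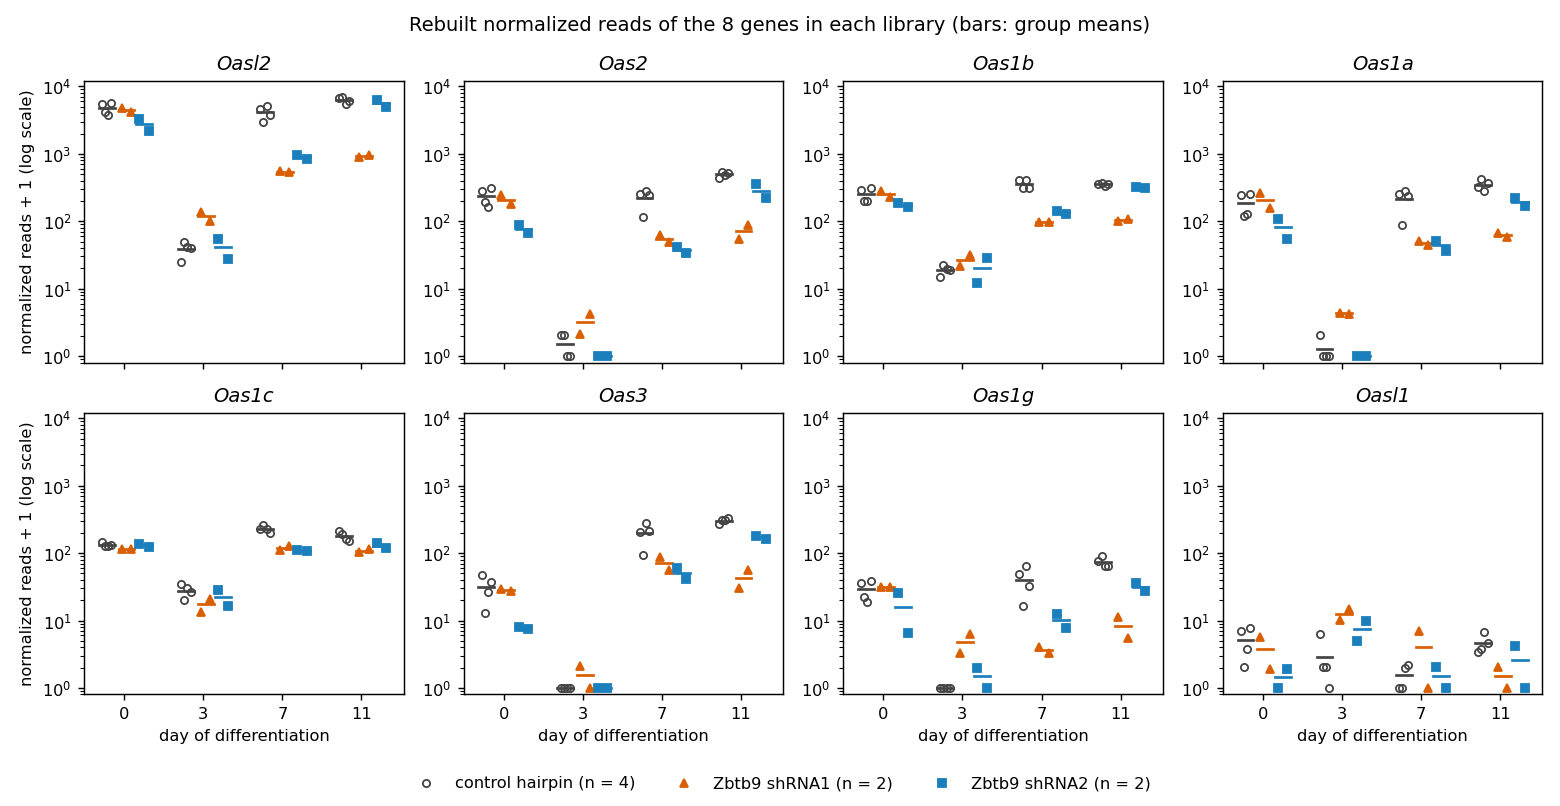
Normalized reads plus 1 (log axis) of each of the 8 genes in each library against the day of differentiation, with control libraries as open circles, shRNA1 as triangles, shRNA2 as squares and bars at group means. Control libraries of all genes but Oasl1 fall at day 3 and return by day 7, where both hairpins sit below control for those 7 genes, and at day 11 shRNA2 lies between control and shRNA1 or near control for most genes.

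The fall at day 3 was found in each gene that could be tested. From day 0 to day 3 in control, limma called 7 of 7 tested genes lower (38.2% of all 13421 genes tested were called lower), with a median log2 change of -2.70 against 0.00 over all genes tested. Oasl1 did not enter the test, which took genes with 2 to the power of the value of at least 10 in at least 4 libraries. Control libraries had 5445, 4115, 3757 and 5693 normalized reads of Oasl2 at day 0 and 24.2, 48.7, 40.8 and 39.3 at day 3. The groups did not come near each other, with a log2 change of -6.06 (SE 0.18, limma adjusted p 7.66e-13). Oas2 went from 280, 190.2, 159.5 and 310.0 normalized reads to 1.05, 1.06, 0 and 0. That is 2 reads in all at day 3 against 1064 at day 0, a 454-fold difference with a counting interval of 125 to 3750. Oas1a had 1 read in the 4 control libraries of day 3 against 842 at day 0, a 718-fold difference with a counting interval of 128 to 28386. Oas1g and Oas3 had 0 reads in all 4 control libraries of day 3. Against the limit of 3 reads over the group that a count of 0 allows, they were at least 36.1-fold and at least 39.2-fold lower than at day 0. The log2 changes of this pair, -1.16 and -1.30, are understated by the shrinkage.

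Oas1b and Oas1c kept measurable levels at day 3. Oas1b had 13.7, 21.2, 18.8 and 18.1 normalized reads in control at day 3 after 196.1 to 315 at day 0, and Oas1c had 33.7, 19.0, 29.3 and 25.5 after 124 to 143. Their falls were 14.2-fold (counting interval 11.1 to 18.4) and 4.90-fold (3.96 to 6.11). Per kilobase these 2 genes with divergent starts had the highest means of the family at day 3, at 9.004 ± 1.57 for Oas1b and 11.2 ± 2.58 for Oas1c, with Oasl2 next at 6.001 ± 1.60 (SD, n = 4). Oas1b and Oas1c did not differ beyond their spread. Oasl1 was too rare to be followed, with 0 to 8 reads in each control library on every day. It had 19 reads in control at day 0 and 7 at day 3, a 2.31-fold difference with a counting interval of 0.93 to 6.51.

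From day 3 to day 7 limma called 7 of 7 tested genes higher in control (37.6% of genes tested), by log2 changes from 1.38 for Oas1g to 5.85 for Oasl2. Oasl2 reached 4619, 2938, 5053 and 3798 normalized reads at day 7, within or near its day 0 range. From day 7 to day 11 in control, 4 of 7 were called higher (28.9% of genes tested) and Oas1c lower (26.1%). The rises were Oas2 (log2 change 1.08, SE 0.21), Oas3 (0.63, SE 0.24), Oas1g (0.63, SE 0.17) and Oasl2 (0.62, SE 0.18), and Oas1c fell by 0.29 (SE 0.11), with limma adjusted p of 0.000421, 0.0365, 0.00215, 0.00997 and 0.0278. In 1 fit of all 32 libraries Oasl2 and Oas3 lost their calls (limma adjusted p 0.269 and 0.127), and the calls of Oas3 and Oas1c were each lost without any 1 of 4 libraries, day 7 replicate 2 and day 11 replicates 3 and 4 among them for both (limma adjusted p 0.0502 to 0.113). Without day 7 replicate 2 the rise of Oas3 was 0.36.

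At day 7 the family was lower in Zbtb9 knockdown than in control. With both hairpins as 1 group, limma called 7 of 7 tested genes lower, where 22.6% of all 13299 genes tested were called lower. The median log2 change of the 7 was -1.42, against 0.01 over all genes tested. Oasl2 had 2938 to 5053 normalized reads in the 4 control libraries, 547 and 529 with shRNA1, and 959 and 830.0 with shRNA2. All 4 knockdown libraries were below the lowest control library, and by reads knockdown had 17.5% of the control level (log2 change -2.44, SE 0.25, limma adjusted p 2.02e-04). Oas2, whose product needs longer double-stranded RNA than Oas1 proteins and works as a dimer, had 250.9, 115, 282 and 244 in control, 60.9 and 47.6 with shRNA1, and 39.9 and 33.1 with shRNA2 (log2 change -1.81, SE 0.23, limma adjusted p 5.38e-05). Control replicate 2 was the lowest control library for Oas2, and it was still above every knockdown library.

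Oas1a, an active synthetase, had 253, 87.2, 280 and 238 normalized reads in control at day 7 against 49.7 and 44.1 with shRNA1 and 50.4 and 35.1 with shRNA2 (log2 change -1.70, SE 0.28). Oas3, the longest of the enzymes, had 204, 92.3, 275 and 210.2 against 87.3, 54.5, 59.8 and 39.9 in the same order (-1.32, SE 0.27). For both genes control replicate 2 came closest to knockdown without overlapping it. Oas1b had 308 to 408 in control and 95.1 to 142 in knockdown (-1.42, SE 0.13). Oas1g had 48.2, 15.2, 63.1 and 31.2 in control, 3.04 and 2.32 with shRNA1, and 11.5 and 6.82 with shRNA2, or 15.0% of control by reads (-1.04, SE 0.20). Oas1c showed the smallest fall, from 195.1 to 259 in control to 105 to 125 in knockdown, with 49.0% of the control level (-0.83, SE 0.10). The limma adjusted p of these 5 genes ran from 2.92e-07 for Oas1b to 0.00265 for Oas3.

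Each hairpin alone gave the same 7 calls at day 7. shRNA1 was lower than control for 7 of 7 (24.3% of genes tested) and shRNA2 for 7 of 7 (22% of genes tested), and the 2 comparisons share their control libraries. Between the hairpins 0 of 7 passed (16.4% of genes tested were called in either direction). On the deposited log2 scale the largest difference between hairpins at day 7 was that of Oasl2 (0.69, SE 0.26, limma adjusted p 0.15), which was called when control replicate 2 was left out (limma adjusted p 0.000146). By reads that of Oas1g was larger, with shRNA2 over shRNA1 at 3.36 (counting interval 1.20 to 11.6, from 18 and 5 reads) against 1.66 for Oasl2. With limma's voom on the rebuilt reads, Oas1a and Oas3 lost their calls in each hairpin (adjusted p 0.0813 to 0.133). Without shRNA2 replicate 2 the shRNA2 count was 4, without Oas1a, Oas3 and Oas1g, and without any 1 of shRNA1 replicate 1 or 2, shRNA2 replicate 1 or control replicate 1 or 4 either Oas1a or Oas3 was lost in 1 hairpin, both in the absence of shRNA1 replicate 2. The pooled count of 7 held without each library in turn.

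**Figure D2:**
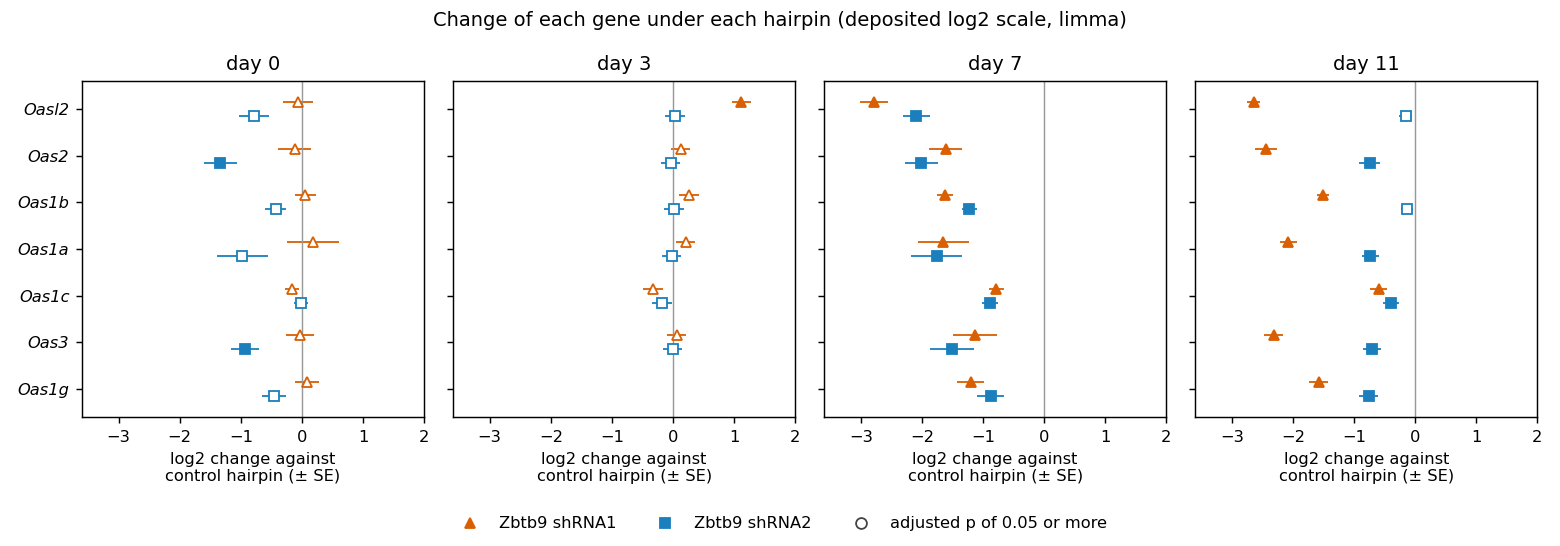
Log2 change of each tested gene against control (x axis, bars are SE from limma) for shRNA1 (triangles) and shRNA2 (squares) on each day, with open symbols where the adjusted p was 0.05 or more. At day 7 both hairpins lie below 0 for all 7 genes, and at day 11 shRNA1 keeps its changes while shRNA2 lies between -0.76 and -0.13.

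At day 11 the hairpins parted. With shRNA1, 7 of 7 tested genes were lower than control (22.2% of genes tested), and with shRNA2 5 of 7 were (19.4% of genes tested), by smaller amounts. shRNA2 was higher than shRNA1 for 6 of 7 (11.6% of 13281 genes tested were called higher). Oasl2 had 6614, 6970.5, 5483 and 6150.2 normalized reads in control, 909 and 972 with shRNA1, and 6358 and 4976 with shRNA2. The shRNA2 libraries overlapped control (log2 change -0.15, SE 0.10, limma adjusted p 0.279), the shRNA1 libraries were far below it (-2.64, SE 0.10, limma adjusted p 9.04e-09), and shRNA2 exceeded shRNA1 6.04-fold by reads (counting interval 5.74 to 6.35), a log2 difference of 2.49 (SE 0.12, limma adjusted p 4.1e-07). Without shRNA2 replicate 2 the Oasl2 change with shRNA2 was 0.02, and without replicate 1 it was -0.33 and passed (limma adjusted p 0.0273).

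Oas2 had 439, 535, 477 and 523 normalized reads in control at day 11, 53.1 and 87.4 with shRNA1, and 351 and 218 with shRNA2. The 3 groups did not overlap, with shRNA2 between the others at 57.8% of control. Oas3 and Oas1a stood in the same order. Oas3 had 270.1 to 328 in control, 29.6 and 54.5 with shRNA1 and 181 and 162 with shRNA2, and Oas1a 283 to 418, 66.4 and 56.8, and 220.1 and 169. The log2 difference between shRNA2 and shRNA1 was 1.70 (SE 0.20) for Oas2, 1.61 (SE 0.17) for Oas3, 1.34 (SE 0.16) for Oas1a and 0.82 (SE 0.18) for Oas1g, with limma adjusted p of 8.54e-05, 7.01e-06, 2.64e-05 and 0.00378. Oas1b, like Oasl2, was near control with shRNA2, with 329 to 363 in control, 101 and 107 with shRNA1, and 320.02 and 315 with shRNA2, a log2 difference between hairpins of 1.38 (SE 0.11, limma adjusted p 4e-07). Oas1c had 152 to 211 in control, 101 and 114 with shRNA1 and 138 and 118 with shRNA2, so the hairpins did not overlap but their difference did not pass (log2 difference 0.20, SE 0.15, limma adjusted p 0.379).

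Pooling both hairpins at day 11 therefore gave a wide knockdown group. limma called 5 of 7 tested genes lower (16.2% of genes tested), namely Oas1a, Oas1c, Oas1g, Oas2 and Oas3, with log2 changes from -1.59 for Oas2 to -0.50 for Oas1c. Oasl2 (-1.40, SE 0.71, limma adjusted p 0.184) and Oas1b (-0.82, SE 0.36, limma adjusted p 0.119) did not pass. The count was 3 without shRNA1 replicate 2 or any 1 of the 4 control libraries, when Oas2 and Oas3 were lost (limma adjusted p 0.0658 to 0.113), and 6 without either shRNA2 library, when Oas1b was called. Oas2 was also lost without shRNA1 replicate 1 (limma adjusted p 0.0527), and in 1 fit of all 32 libraries Oasl2 and Oas1b passed (limma adjusted p 0.0143 and 0.00755). With a replicate block Oas1a, Oas2 and Oas3 did not pass (limma adjusted p 0.14, 0.234 and 0.212). For shRNA2 alone the count was 3 without its replicate 2, when Oas1c and Oas2 were lost, and the call of Oas1c was also lost without control replicate 1 or 2 (limma adjusted p 0.0791 and 0.0661).

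Whether the difference between hairpins changed over time was tested directly, in a contrast chosen after the data had been seen. From day 0 to day 11 the log2 difference of shRNA2 from shRNA1 rose for 6 of 7 tested genes (5.72% of 13571 genes tested rose), by 3.20 for Oasl2, 2.91 for Oas2, 2.52 for Oas3, 2.50 for Oas1a, 1.86 for Oas1b and 1.36 for Oas1g, with limma adjusted p from 4.72e-07 to 0.00444. Oas1c changed by 0.06 (SE 0.22, limma adjusted p 0.911). The day 11 call of Oas1g was lost without shRNA2 replicate 2 of day 0 (0.97, limma adjusted p 0.0751). From day 0 to day 7 the difference rose for 2 of 7 (4.29% of genes tested), Oasl2 by 1.40 and Oas1b by 0.88, and both calls were lost without shRNA1 replicate 1 or shRNA2 replicate 2 of day 0, or shRNA1 replicate 2 or shRNA2 replicate 1 of day 7 (limma adjusted p 0.0504 to 0.114). Zbtb9 reads did not follow the same order at day 11, as given above: the hairpin with fewer Zbtb9 reads had more reads of the family. The difference of Zbtb9 between the hairpins did not pass (log2 change -0.42, SE 0.18, limma adjusted p 0.12), and rests on 6 reads with shRNA2 and 25 with shRNA1. Hairpins are named here as the sample labels give them, and with so few Zbtb9 reads these data hold no check of which hairpin a library carried.

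**Figure D3:**
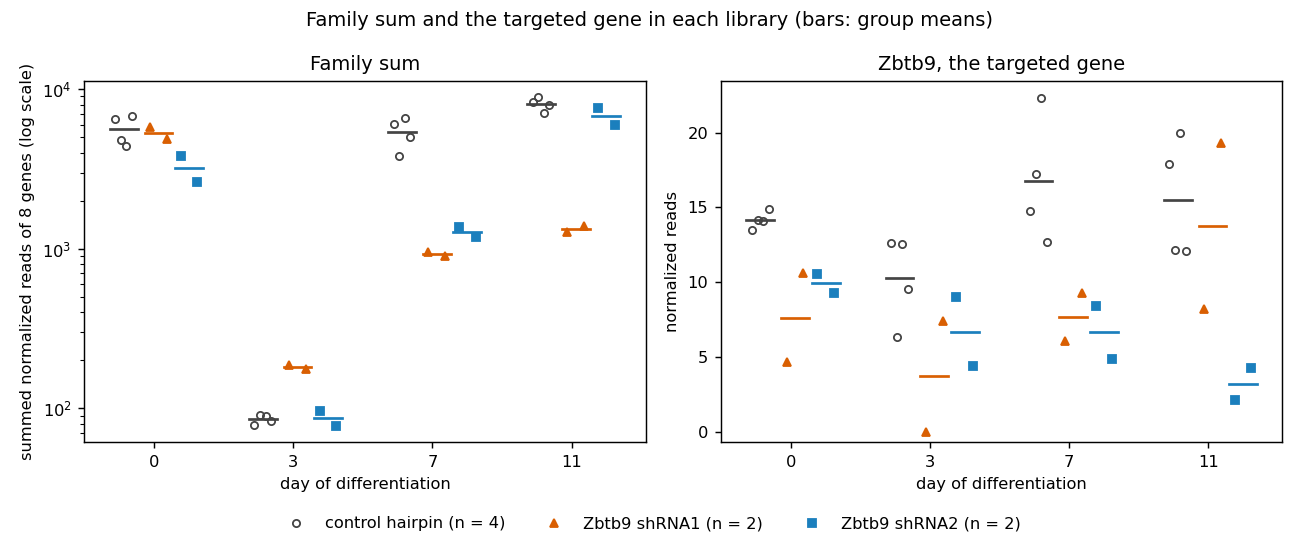
Left, summed normalized reads of the 8 genes (log axis), and right, normalized reads of Zbtb9 (linear axis), in each library against the day, with symbols for the 3 arms and bars at group means. At day 11 the shRNA1 libraries hold 1271 and 1396 summed reads and the shRNA2 libraries 7606 and 5983, next to 7113 to 8877 in control.

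At days 0 and 3 no member passed in the pooled comparison. limma called 0 of 7 at day 0 (3.25% of 13216 genes tested were called, and 2609 had an unadjusted p under 0.05) and 0 of 6 at day 3 (26.7% of 13139 genes tested were called, and 5010 had an unadjusted p under 0.05). By voom both counts were also 0. Of the 6 genes tested at day 3, Oas1a, Oas2 and Oas3 had 1, 2 and 0 reads in all in control. They had 6, 4 and 1 in knockdown, so their lack of a call says little. A share of genes called as low as that of day 0 leaves little to read from the count, and by reads pooled knockdown had 59.5% of control for Oas2 and 55.3% for Oas3 at day 0, and 2.05-fold the control level for Oasl2 at day 3. At day 0 shRNA2 was lower than control for 2 of 7 (10.2% of genes tested), Oas2 and Oas3, and lower than shRNA1 for the same 2 of 7 (16.4% of genes tested). Oas2 had 280, 190.2, 159.5 and 310.0 normalized reads in control, 240.3 and 177 with shRNA1, and 87.0 and 65.8 with shRNA2 (shRNA2 against control -1.34, SE 0.27, limma adjusted p 0.0166). Oas3 had 46.3, 12.1, 25.3 and 36.5 in control, 28.7 and 26.6 with shRNA1, and 7.03 and 6.49 with shRNA2 (-0.93, SE 0.23, limma adjusted p 0.0112). These libraries did not overlap control, but the calls against control were lost without either shRNA2 library (limma adjusted p 0.0651 to 0.146), and that of Oas2 by voom (adjusted p 0.0741). Against shRNA1 the call of Oas3 was lost without any 1 of the 4 hairpin libraries and that of Oas2 without any but shRNA1 replicate 2 (limma adjusted p 0.0549 to 0.125), while without control replicate 3 or 4, which add to the estimate of spread, Oas1b and Oas1g were called as well. shRNA1 against control at day 0 gave 0 of 7 (34.7% of genes tested, 5703 with an unadjusted p under 0.05).

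At day 3, when the family was lowest, Oasl2 was the exception. It had 24.2 to 48.7 normalized reads in control, 137 and 99.5 with shRNA1, and 54.0 and 26.4 with shRNA2. Both shRNA1 libraries were above all others, 3.08-fold over control by reads (counting interval 2.48 to 3.83, log2 change 1.12, SE 0.16, limma adjusted p 8.32e-07). It was the 1 of 6 genes called for shRNA1 against control (20.6% of genes tested were called higher) and the 1 of 6 called for shRNA2 against shRNA1 (8.94% lower), while shRNA2 against control gave 0 of 6 (31.4% of genes tested were called, and 5303 had an unadjusted p under 0.05). Without shRNA2 replicate 2 the pooled comparison called Oasl2 as well (0.84, limma adjusted p 0.014), and for shRNA1 against control Oas1c was called as lower without control replicate 2 (-0.41, limma adjusted p 0.0481). Oas1a had 3 and 3 reads and Oas1g 2 and 5 reads in the shRNA1 libraries, where the 4 control libraries had 1 and 0 reads in all. By voom on these reads Oas1a was called higher with shRNA1 as well (adjusted p 0.0196). The count of 0 of 6 for shRNA2 includes Oas1a, Oas2 and Oas3, which had 0 reads with that hairpin. Oasl1 had 8 and 13 reads with shRNA1, 4 and 8 with shRNA2 and 0 to 5 in control. With no filter on low values it entered the test and was called higher in pooled knockdown and with shRNA1.

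Within the knockdown libraries, fitted with the hairpin as a covariate, the fall and the return were both present. limma called 6 of 7 lower from day 0 to day 3 (37.3% of genes tested), with Oas3 short of the threshold (-0.79, limma adjusted p 0.0995), and 6 of 7 higher from day 3 to day 7 (37.5% of genes tested), with Oas1g short of it (0.21, limma adjusted p 0.428) and the call of Oasl2 lost by voom (adjusted p 0.0534). Oas3 had 76 reads in knockdown at day 0 and 1 at day 3, a 64.1-fold difference (counting interval 11.2 to 2566), and it passed by voom (adjusted p 0.00978) and in 1 fit of all 32 libraries (limma adjusted p 0.0333). The return was smaller than in control. Oasl2 was 108-fold higher by reads at day 7 than at day 3 in control (counting interval 91.6 to 128) and 9.20-fold higher in knockdown (8.15 to 10.4). The knockdown effect became more negative from day 3 to day 7 for 7 of 7 (10.2% of 13571 genes tested), by log2 differences of -3.01 for Oasl2, -1.86 for Oas2, -1.80 for Oas1a, -1.56 for Oas1b, -1.35 for Oas3, -1.18 for Oas1g and -0.58 for Oas1c, with limma adjusted p of 9.65e-04 to 0.0377. By voom on the rebuilt reads the count was 1, Oas1g alone, and the Oas3 call was lost with no filter and without most single libraries (limma adjusted p 0.0508 to 0.0813 where it was lost, in 13 of the 16 fits that leave out 1 library of these days). In control and knockdown at day 3 Oas1a had 1 and 6 reads in all, Oas1g 0 and 8, Oas2 2 and 4, and Oas3 0 and 1. With so few reads a day 3 effect could hardly be seen in these genes. For them the contrast therefore mostly repeats day 7 and cannot show when the effect began.

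Neither neighbouring interval gave a call in the test of the knockdown effect, which pools both hairpins and takes their difference as spread. Against control, the median log2 change of the 7 tested genes was -1.50 at day 7 and -0.71 at day 11 with shRNA2. With shRNA1 it was -1.61 and -2.07, so the pooled test averages over hairpins that parted. From day 0 to day 3 the knockdown effect changed for 0 of 7 (6.57% of genes tested, 2696 with an unadjusted p under 0.05), and from day 7 to day 11 for 0 of 7 (12.7% of genes tested, 3556 with an unadjusted p under 0.05), and voom gave 0 of 7 for both. Inside knockdown 2 of 7 rose from day 7 to day 11 (27.7% of genes tested), Oasl2 (1.66, SE 0.61, limma adjusted p 0.037) and Oas2 (1.31, SE 0.47, limma adjusted p 0.0332). Both calls were lost without shRNA1 replicate 2 of day 7 or any 1 of the shRNA2 libraries of days 7 and 11, and that of Oasl2 also without shRNA1 replicate 1 of day 7 (limma adjusted p 0.0536 to 0.111). With no filter Oasl2 did not pass (limma adjusted p 0.0516), nor did Oas2 by voom (adjusted p 0.138). Without shRNA1 replicate 1 or 2 of day 11 the count was 4, with Oas1a and either Oas1b or Oas1g. The rise was mostly that of 1 hairpin: Oasl2 went from 959 and 830.0 to 6358 and 4976 normalized reads with shRNA2, and from 547 and 529 to 909 and 972 with shRNA1.

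The rest of the pathway was read from lists of known genes. Abce1, a protein of ribosome recycling that is also linked to the oligoadenylate pathway, was higher in knockdown at day 7 (log2 change 0.29, SE 0.08, limma adjusted p 0.00812), and Pde12, Akap7 and Enpp1, whose products can degrade oligoadenylates, were not called on either day.

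Between the interferon receptor and the promoter, Stat2 (log2 change -1.47, SE 0.17) and Irf9 (-1.08, SE 0.12), members of the complex that binds the ISRE, and the receptor kinase Tyk2 were lower in knockdown at day 7. Of all genes tested 22.6% were called lower on that day. Ifnar1, Ifnar2 and Jak1 are not described here, so the genes named do not stand for the whole route. At day 11 Tyk2 was called lower (16.2% of genes tested), while Stat2 (-1.03, SE 0.38, limma adjusted p 0.0844) and Irf9 (-0.62, SE 0.26, limma adjusted p 0.114) were not. Stat2 at day 11 had 3700.3 to 3995 normalized reads in control, 1057 and 1183 with shRNA1, and 3297 and 2803 with shRNA2. The hairpins parted here too, by 1.38 for Stat2 and 0.98 for Irf9 (SE 0.08 and 0.07), each called by limma.

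Among the 6 interferon regulatory factors tested, 3 were called lower (Irf7, Irf5 and Irf2; 22.6% of genes tested) and 1 higher (24.9%) at day 7. Irf7, which amplifies interferon production, had 1261 to 1910 normalized reads in control and 356 to 671 in knockdown (-1.60, SE 0.24, limma adjusted p 0.00103). Irf5 was lower (-0.46, SE 0.13, limma adjusted p 0.00812), and Irf4 went the other way (1.11, SE 0.13, limma adjusted p 5.78e-06). Of 5 negative regulators 4 were called lower at day 7, beside the same 22.6%, among them Usp18, which blocks the receptor (-1.81, SE 0.25), Trim30a (-1.40, SE 0.12) and Socs1 (-0.82, SE 0.11), the last being Socs3. Of 8 sensors and effectors of double-stranded RNA 7 were called lower (22.6% of genes tested) and 1, Mavs, higher (24.9%) at day 7. The largest falls were Zbp1 (-1.88, SE 0.21), Dhx58 (-1.60, SE 0.24) and Ddx58, also called RIG-I (-1.31, SE 0.11). At day 11, 5 of the 8 were called lower (16.2% of genes tested), which were Zbp1, Ddx58, Eif2ak2, Adar and Tlr3.

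Of 20 further interferon-stimulated genes, 20 were lower at day 7 in knockdown libraries (median log2 change -1.63, against 0.01 over all genes tested), where 22.6% of genes tested were called lower, and 3 at day 11 (median -1.003), near the 16.2% called lower over all genes, which were Parp14, Ifit2 and Gbp2. Ifit3 (-3.26, SE 0.40), Ifit1 (-2.57, SE 0.24) and Mx1 (-2.33, SE 0.16) changed most at day 7. Ifit1 at day 11 had 4429 to 5418 normalized reads in control, 509.6 and 448 with shRNA1 and 4184 and 2933 with shRNA2. At day 11 limma called 20 of the 20 higher with shRNA2 than with shRNA1, where 11.6% of genes tested were called higher. The lists were chosen with results of these data known and are no independent evidence. Of the 10 interferon genes looked for, Ifnb1 and Ifne were in the table, and neither entered the test. Ifnb1 had at most 8.74 normalized reads, in 1 control library of day 7.

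**Figure D4:**
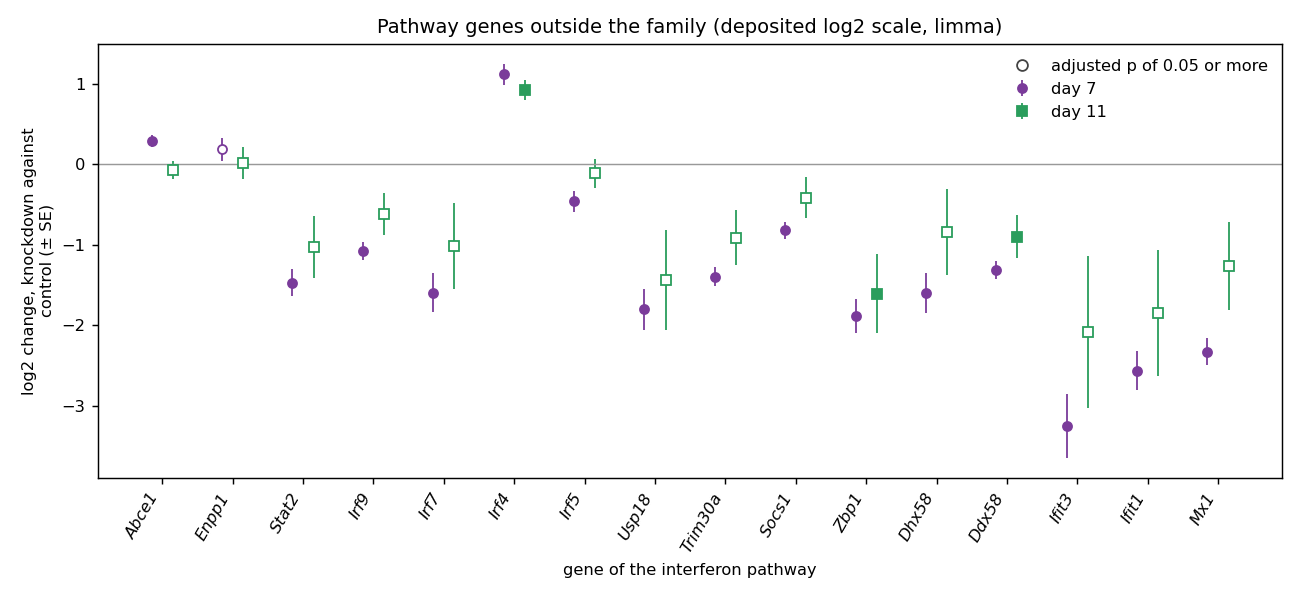
Log2 change of knockdown against control (y axis, bars are SE from limma) at day 7 (circles) and day 11 (squares) for 16 genes of the pathway outside the family, with open symbols where the adjusted p was 0.05 or more. At day 7 Irf4 and Abce1 lie above 0 with filled symbols, and Ifit3 is lowest at -3.26, while at day 11 most symbols are open and their bars are wider.

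The genes most like the family over the 32 libraries were other interferon-stimulated genes. Likeness was taken as Pearson's r of a gene's log2 value with the mean log2 value of the 7 members other than Oasl1, and is given as a description, since libraries of 1 group share treatment and day. Among 13550 genes ranked the 10 highest were Slfn8 (0.99), Phf11d (0.99), Usp18 (0.99), Helz2 (0.98), Ifi44 (0.98), Rtp4 (0.98), Tor3a (0.98), Bst2 (0.98), Mx2 (0.98) and Irf7 (0.98), against a median of 0.01. Within the family r of each member with the mean of the others ran from 0.81 for Oas3 to 0.99 for Oas1a, and was -0.24 for Oasl1. When each library was set against the mean of its own group, so that only the variation between replicates was left, r was 0.92 for Oas1a, 0.88 for Oas2, 0.85 for Oas1g, 0.76 for Oasl2, 0.74 for Oas3, 0.63 for Oas1b and -0.02 for Oas1c. Replicates of a group thus varied together in all of these genes but Oas1c. In control at day 0, replicates 1 and 4 were the highest pair for 8 of 8 genes, and at day 7 replicate 2 was the lowest for 6 of 8, with replicates 1 and 2 tied at 0 reads for Oasl1. Less was shared on the other days: the most frequent highest pair was that of 2 of 8 genes at day 3 and 4 of 8 at day 11, and the most frequent lowest library that of 2 and 3 of 8.

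Oas1f, a further copy in the cluster that is not among the 8 genes, moved the other way in control, at low levels. It had 0 to 1 reads in control libraries at day 0, 39.97, 13.8, 14.7 and 14.9 normalized reads at day 3, and 2.31 to 11.2 at day 7. At day 3 knockdown had 18 reads in all against 79 in control, a ratio of 0.23 (counting interval 0.13 to 0.39). It did not enter the limma test.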

How the data were processed

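The 32 libraries are TruSeq RNA libraries (Illumina), per the labels. The submitters' processing notes name TopHat2 2.1.0, Bowtie2 2.2.6, SAMtools 1.3.1 and HTSeq 0.6.1. The genome build, annotation and use of strand are not given in the sources used here. The values deposited by the authors are on a log2 scale, from -1.56 to 17.99. Their form is that of a regularized log, though no header or label names the step. Inverting that form gave reads within 0.1 of a whole number for 99.3% of values (20% by chance) and for all 8 members in all libraries. The least read gene had 10 reads over all libraries.

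Groups and replicate numbers came from the sample titles. limma 3.58.1 (R 4.3.3) was run on the deposited log2 values with trended, robust empirical Bayes variance and Benjamini-Hochberg adjustment over all genes tested, with a threshold of 0.05. Genes with 2 to the power of the value of at least 10 in at least 4 libraries of the fit entered. This filter is on the deposited values and not on reads, so a gene could enter on a day with almost no reads. Knockdown against control and the 3 arms were fitted per day, the time courses per arm, and differences of effects over all 32 libraries. The fit of pooled knockdown against control at day 7 was tested on simulated reads, and the other fits were not. Alternatives were no filter, a minimum of 50, rescaling to equal totals, plain empirical Bayes, a replicate block, 1 fit of all libraries, voom on rebuilt reads, and leaving out each library. Voom for fits other than knockdown against control, and the change of the hairpin difference since day 0, were added after seeing the data.

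All 8 members are named whatever their values. From each pathway list the 3 genes with the largest change at day 7 are named, with Stat2, Irf7 and Irf9 in any case, apart from genes that are not reported here; Tyk2, Irf2, Socs3, Mavs, Eif2ak2, Adar, Tlr3, Pde12, Akap7, Parp14, Ifit2, Gbp2 and Oas1f are named outside that rule after their values were seen. Members and lists were chosen with earlier results of these data known. Exon lengths and positions came from GENCODE on GRCm38, and fold intervals are exact 95% intervals of read counts.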

Additional observations from a re-analysis of the deposited data

Results flagged for a closer look

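A control library stood apart from the other 3 of its group by Dixon's test in 3 of the 32 groups of control libraries examined, and chance flags about 1 in 20 groups. Oas1a at day 3 in replicate 1 had a log2 value of 4.10, from its 1 read where the others had 0. At day 7 replicate 2 was low for Oas1a (log2 value 6.41) and for Oas2 (6.77).

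The hairpins differed from each other by the limma test of that difference. At day 0 shRNA2 minus shRNA1 was -1.22 for Oas2 and -0.91 for Oas3 on the log2 scale, and at day 3 it was -1.09 for Oasl2. At day 11 it was 2.49 for Oasl2, 1.70 for Oas2, 1.61 for Oas3, 1.38 for Oas1b, 1.34 for Oas1a and 0.82 for Oas1g. Set against its value at day 0, this difference was larger at day 7 by 1.40 for Oasl2 and 0.88 for Oas1b, and at day 11 by 3.20 for Oasl2, 2.91 for Oas2, 2.52 for Oas3, 2.50 for Oas1a, 1.86 for Oas1b and 1.36 for Oas1g.

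The knockdown effect differed between days 7 and 3 by the limma interaction test, by -3.01 for Oasl2, -1.86 for Oas2, -1.80 for Oas1a, -1.56 for Oas1b, -1.35 for Oas3, -1.18 for Oas1g and -0.58 for Oas1c. Oas1a, Oas1g, Oas2 and Oas3 had almost no reads at day 3, so for them the test cannot show when the effect began.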

How the results depend on the processing

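Values below are counts of family members called, unless said otherwise. Knockdown against control at day 7, and the fall and return of control between days 0, 3 and 7, kept counts within 1.5 times of the main ones in all alternatives run. With no filter the counts were 1 for knockdown at day 3, 2 for shRNA1 at day 3, 1 for the hairpin difference at day 7, 1 for knockdown from day 7 to day 11 and 1 for the change of the knockdown effect from day 0 to day 3. Rescaling to equal totals gave 1 for the hairpin difference at day 7, and moved the median log2 change of all genes from day 0 to day 3 by -0.13 in control and -0.16 in knockdown. The falls of the members on that interval were larger. Among all calls, it moved the share called higher from 50.1% to 38.6% there in control, from 50.3% to 37.7% in knockdown, from 25.1% to 43.3% for knockdown at day 0, from 42.0% to 57.0% for shRNA2 at day 0, from 53.2% to 42.5% for shRNA1 at day 7, from 45.8% to 61.9% for the hairpin difference at day 7, and from 56.2% to 42.4% and 55.9% to 45.3% for the change of the knockdown effect to day 3 and to day 7. In 1 fit of all 32 libraries the counts were 3 for control and 4 for knockdown from day 7 to day 11. Voom on rebuilt reads gave 1 for shRNA2 against control and 1 against shRNA1 at day 0, 2 for shRNA1 at day 3, 1 for knockdown from day 7 to day 11 and 1 for the change of the knockdown effect from day 3 to day 7. The causes were not tested.

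Libraries with the same replicate number did not deviate together: the correlation of their deviations from the group means was over 0.1 for 3 of 16 pairs of arms within a day (-0.005 to 0.215), all at day 11, where the remaining pair was at 0.004, and for 1 of 24 pairs of days in control (-0.094 to 0.119). With a replicate block the counts were 2 for knockdown at day 11 (Oas1a, Oas2 and Oas3 not passing, with limma adjusted p of 0.14, 0.234 and 0.212), 5 for shRNA2 against control and 6 for shRNA2 against shRNA1 at day 0, and 2 for the hairpin difference at day 7.

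Leaving out 1 library at a time gave counts of 0 to 3 for shRNA2 against control and 0 to 4 against shRNA1 at day 0, 0 to 1 for knockdown and 1 to 2 for shRNA1 at day 3, 4 to 7 for shRNA2 and 0 to 1 for the hairpin difference at day 7, 3 to 6 for knockdown and 3 to 6 for shRNA2 at day 11, 3 to 5 for control and 0 to 4 for knockdown from day 7 to day 11, and 0 to 3 for the hairpin difference of day 7 set against day 0. Where 1 library of a hairpin was left, it was assumed to vary like the other groups. The log2 change of Oasl2 with shRNA2 at day 11 ran from -0.33 to 0.0169, the value without shRNA2 replicate 2. Depth limits what can be said of Oasl1 on all days and of Oas1g, Oas1a, Oas2 and Oas3 at day 3, where groups held 0 to 8 reads.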
